A study of Mus musculus with 29 samples.

Results

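Gene expression in kidney was compared with that in lymph node of proteinuric lupus-prone mice, a comparison of 7 libraries among the 29 samples of the series. The 4 kidney libraries came from mice H6, H20, H117 and H115, aged 39, 36, 32 and 25 weeks, and the 3 lymph node libraries from mice H6, H20 and H117 of that same set. All were proteinuric (NZBxNZW)F1 mice, called NZB/W, a cross that develops antibodies against DNA, immune complex nephritis and lymphoid aggregates in the kidney. The lymph nodes were those draining the kidney. The study describes the kidney tissue as coming from kidneys whose tertiary lymphoid structures (TLS) were dissected by hand. The series has TLS libraries of mice H6, H115 and H20 but not of mouse H117. Whether small aggregates stayed in the kidney tissue was not tested. Mouse H115 had no lymph node library and was younger than the nephritic mice as the study describes them. No mouse without proteinuria and no other strain entered the main comparison, so a difference between the tissues cannot be told apart from one that exists without nephritis. The members were the 7417 genes, of 13982 listed, whose values averaged 5 or more over the 7 libraries, and the within-mouse differences of mice H6, H20 and H117.

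The kidney cleans the blood by filtering it through podocyte-lined capillaries and by taking back nearly all of the filtrate in a row of tubule segments, each with its own transporters. The proximal tubule does most of this work and lives on fatty acid oxidation in dense mitochondria. A lymph node is a meeting place of lymphocytes, which enter through high endothelial venules, are held in T-cell and B-cell zones by stromal chemokines, and can mature there into antibody-secreting plasma cells.

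Each library had between 343825 and 435906 reads on genes (median 365916). The deposited values hold each gene's reads, with 1 added, after division by a size factor, so a gene without reads is listed between 0.809 and 1.77 rather than at 0, and 3 reads were worth between 2.43 and 5.32. Kidney values are given below in the order of mice H6, H20, H117 and H115 and lymph node values in the order of mice H6, H20 and H117. Reads of 3 ribosomal RNA genes made up 55.6% of the library from kidney of mouse H117 and 31.9% of that from lymph node of mouse H6, and between 0.388% and 5.13% of the other 5, so these 2 libraries were shallower for all other genes. Results that moved by over 1.5 times without both are given in both forms. Across the 7417 genes, Spearman's rho between libraries was 0.737 to 0.903 within kidney, 0.810 to 0.899 within lymph node and 0.0684 to 0.365 between the tissues.

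Kidney and lymph node differed in 3248 differentially expressed (DE) genes, which is 43.8% of the genes tested (limma with Benjamini-Hochberg adjustment, threshold 0.05). In kidney 1717 genes (23.1%) were up-regulated and in lymph node 1531 (20.6%). The median log2 fold change of kidney over lymph node, on the log2(value + 1) scale used throughout, was -0.05 over all genes tested, 2.17 in size among the genes up-regulated in kidney and 2.19 among those up-regulated in lymph node. A change of at least 2-fold was found for 1616 and 1451 of them. Of the genes up-regulated in kidney, 873 had no more than 3 reads in any lymph node library and 542 had none, and of those up-regulated in lymph node, 410 had no more than 3 reads in any kidney library and 163 had none. The lymph node side included 212 of the 223 antibody and T-cell receptor segment genes tested, and the kidney side none. The libraries of the tissues did not overlap for 3643 genes (49.1%), called or not. In these bulk samples, fewer cells of a type and less RNA per cell cannot be told apart, and tissues of one mouse are not independent of each other. With the mouse as a replicate block, which leaves out kidney of mouse H115, there were 2462 DE genes.

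The largest differences were those of tubule products in kidney and of high endothelial venule, B-cell and fat genes in lymph node. Kap, the kidney androgen-regulated protein of the proximal tubule (ENSMUSG00000032758; chromosome 6, 133849851 to 133853762 in GRCm38), had values of 4482, 7074, 13990.3 and 13668 in kidney and 2.90, 2.84 and 0.809 in lymph node. The lymph nodes had 3 reads of it in all, and the ratio of the pooled reads was 8796 (95% counting interval 3009 to 42653). Umod, the uromodulin of the thick ascending limb (ENSMUSG00000030963; chromosome 7, 119462711 to 119479282), had values of 830.2, 705, 893 and 2705 in kidney and 1.45, 0.947 and 0.809 in lymph node, with no read in lymph node, so that kidney was at least 295-fold higher when 3 reads are allowed in the shallowest lymph node library. Fxyd2, the gamma subunit of the sodium pump (ENSMUSG00000059412; chromosome 9, 45399669 to 45410278), had values of 1809, 1393, 4658 and 3572 in kidney and 4.35, 11.4 and 3.24 in lymph node, a log2 fold change of 8.60 (SE 0.55, adjusted p = 2.29e-06). Miox, which breaks down inositol in the renal cortex, and Spink3, a secreted protease inhibitor, had no read in any lymph node and were at least 172-fold and 160.3-fold higher in kidney. Gpx3, the plasma glutathione peroxidase made by the proximal tubule, had values of 6921, 5388, 6984 and 3829 in kidney and 20.3, 29.4 and 8.90 in lymph node. It was read in each lymph node, though every kidney library lay far above (log2 fold change 8.24, SE 0.48).

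Glycam1, the mucin that high endothelial venules present to L-selectin on lymphocytes (ENSMUSG00000022491; chromosome 15, 103562759 to 103565081), had values of 0.884, 5.90, 1.77 and 1.16 in kidney and 1599.8, 1699 and 1765 in lymph node (log2 fold change -9.15, SE 0.45, adjusted p = 1.09e-06). The 3 lymph nodes lay close together and only kidney of mouse H20 had a read at all. Ccl21a, a chemokine of the T-cell zone, had values of 3.54, 11, 1.77 and 4.64 in kidney and 419, 930.3 and 535 in lymph node (log2 fold change -6.78, SE 0.50), and its reads may be split with those of very similar gene copies. Mzb1, a chaperone of antibody assembly, had values of 3.54, 12.7, 8.87 and 4.64 in kidney and 972, 555 and 299 in lymph node (log2 fold change -6.15, SE 0.50). Lymph node of mouse H6 was the highest for Mzb1 and that of mouse H117 the lowest, and no kidney library came near them. Ptprcap, a partner of the leukocyte phosphatase CD45, had values of 1.77, 7.59, 1.77 and 1.16 in kidney and 191, 168 and 114.9 in lymph node (log2 fold change -5.49, SE 0.47). Thrsp, a regulator of fat synthesis, had values of 107, 369 and 45.3 in lymph node and 1 read in all kidneys together, a ratio of 649 (95% counting interval 116 to 25685).

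**Figure D1:**
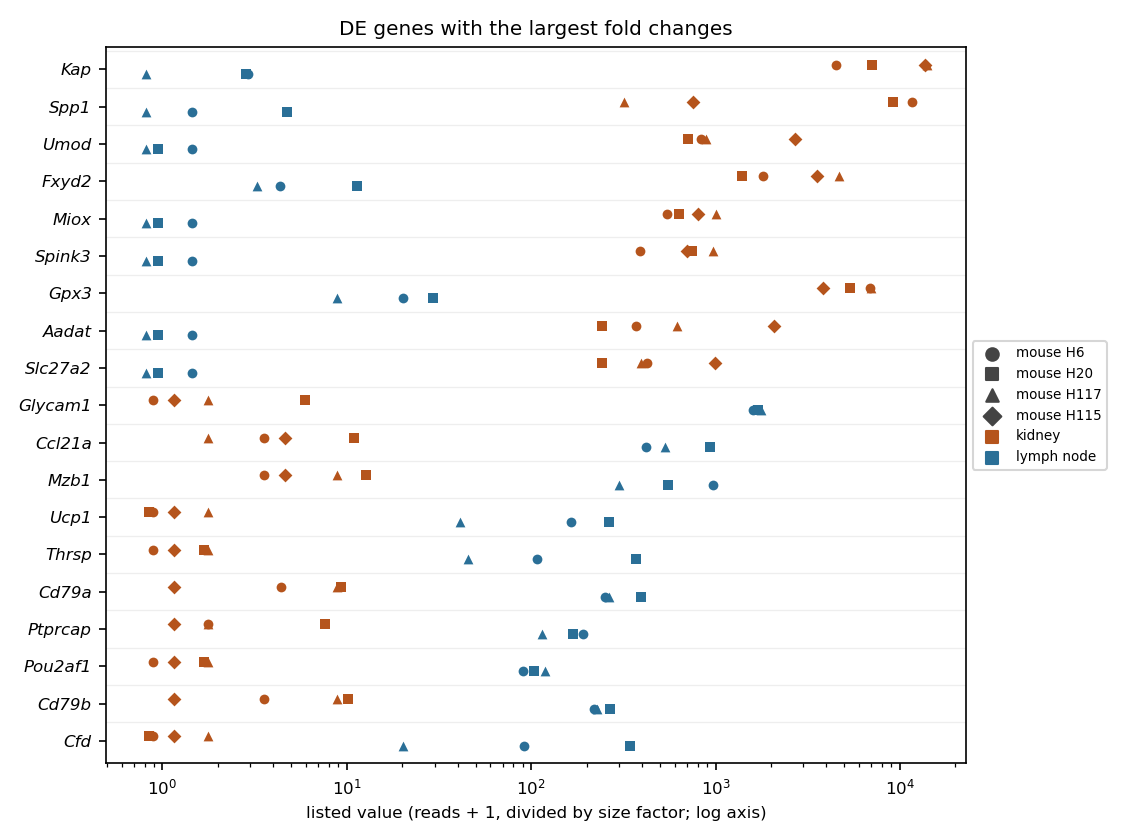
Listed values (log axis) of DE genes among those with the largest fold changes in each direction, one point per library, with colour for the tissue and shape for the mouse. Kidney points lie to the right of all lymph node points in the upper 9 genes, from Kap to Slc27a2, and to the left of them in the lower 10, from Glycam1 to Cfd.

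Proximal tubule genes were up-regulated in kidney almost without exception. All 15 tested genes of transport and endocytosis were DE, with a median log2 fold change of 4.94 and a range of 3.45 to 7.77, beside -0.05 over all genes. Slc27a2, a fatty acid transporter and acyl-CoA synthetase, had values of 424, 242, 394 and 993 in kidney and no read in lymph node, at least 118-fold higher. Slc34a1, the sodium-phosphate cotransporter of the brush border, had kidney values of 299.7, 218, 328 and 629, and Slc3a1, a subunit of the cystine transporter, had 253, 136, 177 and 454. Both had no read in lymph node and were at least 84.6-fold and 58.4-fold higher in kidney. Lrp2, the megalin receptor that takes up filtered protein, had kidney values of 74.3, 55.7, 137 and 468 and was at least 42-fold higher. Kidney of mouse H115 was the highest of the 4 for Slc27a2, Slc34a1, Slc3a1 and Lrp2. Of the 19 tested metabolic genes of this segment, 18 were up-regulated in kidney and 1 was not called, with a median log2 fold change of 6.11. Aadat, an aminotransferase of lysine breakdown, had kidney values of 369.6, 243, 621 and 2082 and was at least 190.4-fold higher. The summed level of the metabolic list was 8187 to 23322 in kidney and 57.5 to 104 in lymph node, and 13 of its 20 listed genes had no read in lymph node.

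The later tubule segments and the glomerulus followed in the same direction for most of the genes tested. In the thick ascending limb, which dilutes the urine, all 7 tested genes were up-regulated in kidney (median log2 fold change 4.59). Slc12a1, the sodium-potassium-chloride cotransporter that loop diuretics block, had kidney values of 32.7, 36.3, 83.4 and 386. Egf, the growth factor shed into urine by this segment, had 24.8, 26.1, 119 and 365. Ppp1r1a, a phosphatase inhibitor, had 24.8, 42.2, 94.1 and 140.2. In each of the 3, kidneys of mice H6 and H20 were lowest and that of mouse H115 highest. Slc12a1 and Egf had no read in lymph node and were at least 30.7-fold and 30.5-fold higher in kidney, and Ppp1r1a, with 2 reads there, had a ratio of 98.8 (95% counting interval 27.1 to 820.1). In the distal convoluted tubule, 2 of 3 tested genes were up-regulated in kidney. Slc12a3, the thiazide-sensitive cotransporter, had even kidney values of 90.2, 77.6, 114 and 118 with none read in lymph node, a difference of at least 22.7-fold. Calb1, a calcium buffer of this segment, had kidney values of 4.42, 8.43, 19.5 and 10.4 and was at least 2.19-fold higher. Pvalb, another calcium buffer, had 0.884, 5.06, 53.2 and 34.8 and was not called (adjusted p = 0.0793), with no read in kidney of mouse H6. Of the 6 tested collecting duct genes, 5 were up-regulated in kidney. They included the water channels Aqp2, with kidney values of 38, 44.7, 37.3 and 103, and Aqp3, with 11.5, 9.28, 17.7 and 35.9, the cortisol-inactivating Hsd11b2, with 31.8, 48.9, 37.3 and 42.9, and the intercalated cell proton pump gene Atp6v1g3, with 8.84, 20.2, 12.4 and 10.4. None of the 11 collecting duct genes listed had a read in lymph node.

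Podocyte genes were read at low levels in kidney, and of 4 tested, 3 were up-regulated there and 1 in lymph node. The call in lymph node was lost with the mouse as a replicate block or without lymph node of mouse H117. Podxl, the podocalyxin of foot processes and of blood vessels, had values of 55.7, 32.1, 37.3 and 40.6 in kidney and 1.45, 3.79 and 3.24 in lymph node, a ratio of 20.3 (95% counting interval 9.12 to 56.2). Cdkn1c, a cell cycle inhibitor of resting podocytes, had kidney values of 12.4, 16, 10.6 and 11.6 and no read in lymph node, and was at least 2.64-fold higher. The kidney libraries lay close together for Cdkn1c and did not overlap with the lymph nodes for either gene. The sodium pump, which drives reabsorption along the whole tubule, was up-regulated in kidney in all 3 subunits. Atp1b1, its beta subunit, had values of 263, 258, 300.0 and 598 in kidney and 4.35, 3.79 and 5.67 in lymph node. The lowest kidney library was far above the highest lymph node for Atp1b1 (log2 fold change 5.91, SE 0.38).

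Kidney transcription factors were up-regulated in kidney for 10 of 11 tested genes (median log2 fold change 2.74), and 13 of the 16 listed had no read in lymph node. Hnf4a, the nuclear receptor that drives the proximal tubule program (ENSMUSG00000017950; chromosome 2, 163506808 to 163572910), had kidney values of 95.5, 60.7, 108 and 196 and was at least 26.2-fold higher. Tfcp2l1, a factor of the collecting duct, had kidney values of 16.8, 16.9, 17.7 and 25.5, the highest in mouse H115. Hoxd8, a patterning gene, had kidney values of 15.9, 16, 16 and 8.11, the lowest in mouse H115. The lower bounds were 4.16-fold for Tfcp2l1 and 2.95-fold for Hoxd8.

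The 250 bases before the start sites were searched for the letters of 6 motifs on both strands, 2 of them bound by factors of kidney epithelium (HNF1 and HNF4) and 4 by factors of leukocytes among other cells. RefSeq promoters in GRCm38.p6 were found for 1272 of the 1717 genes up-regulated in kidney and 944 of the 1531 up-regulated in lymph node, and a gene counted once if any of its windows held the letters. The HNF1 letters GTTAATNA were in 4.80% of the promoters of genes up-regulated in kidney, 1.27% of those up-regulated in lymph node and 2.73% of all 27025 genes with a promoter. The PU.1 letters GAGGAAGT had the opposite order, with 2.67%, 5.93% and 2.79%. So had the NF-kB letters GGGACTTTC, with 0.157%, 0.847% and 0.337%, but the first 2 shares were only 2 and 8 genes. Among the genes not called, the shares were 1.44% for HNF1, 2.77% for PU.1 and 0.468% for NF-kB. The ETS letters CCGGAAGT, which share GGAAGT with those of PU.1, were in 3.69% and 5.19% of the promoters on either side and in 9.15% of those of the genes not called. The HNF4 letters CAAAGTCCA were in 0.708% and 0.636%, beside 0.451% of all. The octamer letters ATGCAAAT were in 2.04% and 2.33%, beside 1.81%. These shares are descriptions of the letters in the windows and were not tested.

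The windows of a pair of genes up-regulated in kidney are shown whole because they hold the letters of HNF1 and HNF4, with the match in capitals, 5′ to 3′ on the strand of the gene. The first is Spp1 on the plus strand (chr5:104434861-104435110), with the HNF1 letters, and the second Slc3a1 on the plus strand (chr17:85028097-85028346), with the HNF4 letters. The same window of Spp1 also holds the PU.1 letters, left in lower case, and a window at another start site of Spp1 holds the octamer letters. That other window lies wholly within annotated exons (250 of 250 bases).
Spp1: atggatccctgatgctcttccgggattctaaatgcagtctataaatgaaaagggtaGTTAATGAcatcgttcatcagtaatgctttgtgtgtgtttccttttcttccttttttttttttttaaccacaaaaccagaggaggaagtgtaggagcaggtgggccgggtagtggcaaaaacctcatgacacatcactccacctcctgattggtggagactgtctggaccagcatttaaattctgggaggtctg
Slc3a1: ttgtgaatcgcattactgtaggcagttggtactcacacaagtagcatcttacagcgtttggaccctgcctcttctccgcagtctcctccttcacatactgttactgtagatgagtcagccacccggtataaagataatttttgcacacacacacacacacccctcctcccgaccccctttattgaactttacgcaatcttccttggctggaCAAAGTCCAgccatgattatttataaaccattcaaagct

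Some of the matches in other named genes are shown as 30 bases around the capitals, at most 2 genes a motif, counting those above, in order of fold change. Hnf4a (HNF1, chr2:163547061-163547090, plus strand), Aadat (HNF4, chr8:60506042-60506071, plus strand) and Egf (ETS, chr3:129725113-129725142, minus strand) were up-regulated in kidney. Tcf7 (ETS, chr11:52282603-52282632, minus strand), Cd37 (PU.1, chr7:45238846-45238875, minus strand) and Ltb (NF-kB, chr17:35194411-35194440, plus strand) were up-regulated in lymph node. In Hnf4a, Aadat, Tcf7, Cd37 and Ltb the capitals are the letters as read on the opposite strand. Of the matches not shown, the HNF1 letters were also in Fga and Havcr1, up-regulated in kidney, and in Cd5l and Cfp, up-regulated in lymph node, and the PU.1 letters also in Rpl36a, up-regulated in lymph node.
Hnf4a: agcaacgggggTGATTAACcattaactcct
Aadat: cctctgtggaTGGACTTTGtcccttctgcc
Egf: ttaagccgagaCCGGAAGTactgcgaaggt
Tcf7: gagctggagtcACTTCCGGtgccctgacct
Cd37: acccccccggaACTTCCTCtttctctgccg
Ltb: agggtgttcgGAAAGTCCCcgggcaggggg

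Many genes of energy metabolism had higher RNA levels in kidney, with smaller median fold changes than the transport and endocytosis list. In fatty acid oxidation and peroxisomes, 12 of 17 tested genes were up-regulated in kidney and none in lymph node (median log2 fold change 1.98). Ehhadh, the peroxisomal bifunctional enzyme, had values of 155, 81.8, 112 and 280.5 in kidney and 1.45, 3.79 and 1.62 in lymph node. Acaa1b, a peroxisomal thiolase, had 84, 64.1, 124 and 116 in kidney and 2.90, 0.947 and 2.43 in lymph node. No lymph node library had more than 3 reads of either, and the ratios were 114 (95% counting interval 44.3 to 420.2) for Ehhadh and 89.5 (95% counting interval 30.4 to 436) for Acaa1b. Acadm, the medium-chain acyl-CoA dehydrogenase of mitochondria, had values of 130.0, 137, 387 and 535 in kidney and 18.8, 41.7 and 13.8 in lymph node. It was read in every lymph node and up-regulated in kidney by 3.42 on the log2 scale (SE 0.59).

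The citric acid cycle and respiratory chain encoded in the nucleus differed by less. Every one of the 27 tested genes had a fold change above 0 (range 0.21 to 1.86, median 1.14), and 12 were DE. Idh2, a mitochondrial isocitrate dehydrogenase, had values of 59.2, 66.6, 112 and 173 in kidney and 24.6, 26.5 and 24.3 in lymph node (log2 fold change 1.86, SE 0.41, adjusted p = 0.00423). Atp5b, the catalytic subunit of ATP synthase, had 417, 405, 531 and 869 in kidney and 184, 279 and 142 in lymph node (log2 fold change 1.44, SE 0.43, adjusted p = 0.0212). Ndufv1 of complex I and Cyc1 of complex III had log2 fold changes of 1.44 and 1.44 (SE 0.45 and 0.43), and kidney of mouse H115 was the highest library for all 4. The count of 12 fell to 1 with the mouse as a replicate block and to 5 without both libraries rich in ribosomal RNA. It fell to 2 without kidney of mouse H115, to 1 without lymph node of mouse H117 and to 7 without lymph node of mouse H6, and rose to 21 against all 7 lymph node libraries of the series. The 4 added there came from 1 young mouse and 3 mice positive for antibodies against DNA, none of them labelled proteinuric. All 4 were younger than mice H6, H20 and H117, and the RNA of the 3 antibody-positive mice was purified with another kit. Idh2 kept its call in each of these fits. That of Atp5b was lost without kidney of mouse H115, lymph node of mouse H117 or lymph node of mouse H6 (adjusted p = 0.0571 to 0.0706), or with the mouse as replicate block (adjusted p = 0.115), or without both libraries rich in ribosomal RNA (adjusted p = 0.0919). That of Ndufv1 was lost without kidney of mouse H115, lymph node of mouse H117 or lymph node of mouse H6 (adjusted p = 0.056 to 0.0986), or with the mouse as replicate block (adjusted p = 0.114), or without both libraries rich in ribosomal RNA (adjusted p = 0.112). That of Cyc1 was lost without kidney of mouse H115 or lymph node of mouse H117 (adjusted p = 0.0579 to 0.0754), or with the mouse as replicate block (adjusted p = 0.111), or without both libraries rich in ribosomal RNA (adjusted p = 0.0759).

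Genes of the mitochondrial genome were up-regulated in kidney in 12 of 13 cases (median log2 fold change 2.15). mt-Co1, a subunit of cytochrome oxidase, had values of 12609, 9181, 9074 and 23247 in kidney and 1649, 3831 and 2561 in lymph node, and mt-Nd4, a subunit of complex I, had 3139, 2666, 1469.7 and 6418 in kidney and 346, 989 and 557 in lymph node. The same order held for mt-Nd4l and mt-Nd5, with log2 fold changes of 2.71 and 2.27 (SE 0.63 and 0.50). Every kidney library was above every lymph node library for these 4 genes, and kidney of mouse H115 was the highest. Against all 7 lymph node libraries, 4 of the 13 were called, mt-Nd4 and mt-Nd4l not among them. Copies of mitochondrial sequence in the nucleus could share these reads.

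**Figure D2:**
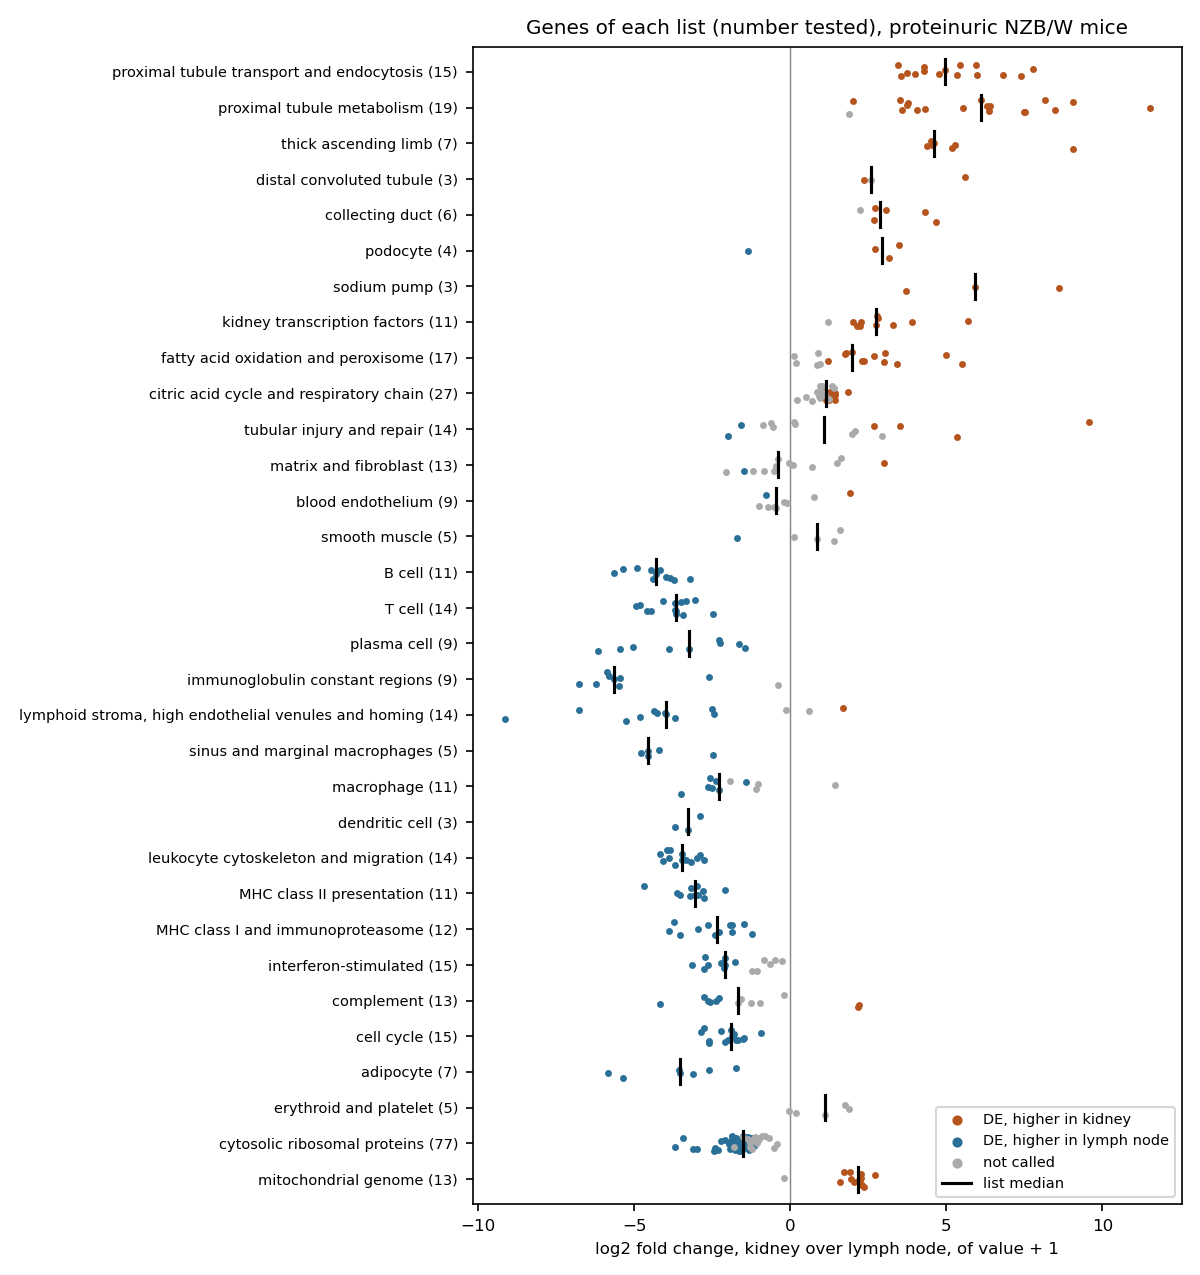
Log2 fold change of kidney over lymph node for each tested gene of the lists, coloured by whether the gene was DE, with the list median as a black bar and the number tested in brackets. The tubule lists lie to the right of 0, the B-cell, T-cell and plasma cell lists to the left, and the injury, matrix, endothelial and smooth muscle lists on both sides.

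Markers of lymphocytes were up-regulated in lymph node without exception among the genes tested. This held for all 11 B-cell genes (median log2 fold change -4.32) and all 14 T-cell genes (median -3.68). Cd79a and Cd79b, the signalling chains of the B-cell receptor, had values of 4.42, 9.28, 8.87 and 1.16 in kidney and 251, 395 and 263 in lymph node, and of 3.54, 10.1, 8.87 and 1.16 in kidney and 220.3, 267 and 227 in lymph node, respectively. Cd37, a tetraspanin of B cells, had 1.77, 4.22, 3.55 and 1.16 in kidney and 43.5, 109 and 89 in lymph node. Their log2 fold changes were -5.66, -5.38 and -4.46 (SE 0.53, 0.53 and 0.42). Kidneys of mice H6, H20 and H117 had some reads of Cd79a and Cd79b, and that of mouse H115 had none. Among T-cell genes, Lat, an adaptor of the T-cell receptor, had lymph node values of 97.1, 79.6 and 69.6, and Tcf7, a transcription factor of naive and memory T cells, had 39.1, 54.9 and 58.3. Kidneys had no read of Tcf7, for which lymph node was at least 9.34-fold higher, and 3 reads of Lat, for which the ratio was 97.9 (95% counting interval 33.1 to 478). Cd3g of the receptor complex and the kinase Lck had values of 1.77, 4.22, 1.77 and 1.16 in kidney and 97.1, 92.8 and 68 in lymph node, and of 3.54, 4.22, 1.77 and 1.16 in kidney and 68.1, 79.6 and 77.7 in lymph node, respectively (log2 fold change -4.82 and -4.46, SE 0.35 and 0.35). The summed B-cell level was 19.7 to 57.4 in kidney and 846 to 1327 in lymph node, and the T-cell level 18.5 to 28.4 in kidney and 553 to 593 in lymph node. These sums include the values listed for genes without reads. Kidneys of mice H115 and H117 had no read of any T-cell gene listed. Both ends of the kidney range for T cells, 18.5 in H115 and 28.4 in H117, are therefore such values alone.

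Plasma cell genes and antibody constant regions were up-regulated in lymph node as well. All 9 tested plasma cell genes were called (median log2 fold change -3.25). Igj, the joining chain of secreted IgM and IgA, had values of 53.9, 50.6, 28.4 and 10.4 in kidney and 1607, 836 and 802 in lymph node. Pou2af1, a B-cell transcription coactivator, had lymph node values of 89.8, 103 and 118, a ratio over kidney of 394 (95% counting interval 70.2 to 15619). Derl3, a gene of protein quality control in the secretory pathway, had 53.6, 49.3 and 35.6, a ratio of 32.6 (95% counting interval 13.6 to 102). Of the 9 tested constant region genes, 8 were up-regulated in lymph node (median -5.67). Ighg3 had values of 53.9, 81, 129.6 and 18.5 in kidney and 8921, 7339.9 and 3922 in lymph node (log2 fold change -6.77, SE 0.63). Ighg1 had 20.3, 17.7, 26.6 and 3.48 in kidney and 1575, 1780.0 and 502 in lymph node (log2 fold change -6.23, SE 0.67). Ighm had 92.8, 114.7, 63.9 and 22 in kidney and 3636, 4274 and 3441 in lymph node and Ighg2b 55.7, 114.7, 72.8 and 25.5 in kidney and 5162, 3011 and 2491 in lymph node. For both IgG genes lymph node of mouse H117 was the lowest of the 3, while the kidneys of mice H6, H20 and H117 each had antibody reads and that of mouse H115 had the fewest. Igkc, the constant region of kappa light chains, had 211, 208, 375 and 126 in kidney and 410.1, 283 and 198 in lymph node, which overlapped between the tissues (log2 fold change -0.41, adjusted p = 0.5), unlike the heavy chain genes named here. Constant region genes of the IgG subclasses are similar in sequence, and reads could be split between them.

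Lymph node architecture and homing genes were up-regulated in lymph node for 11 of 14 tested genes. Ltb, the lymphotoxin that lymphocytes use to maintain stroma, had values of 3.54, 8.43, 1.77 and 1.16 in kidney and 129, 183 and 152 in lymph node, and Ccl19, the other chemokine of the T-cell zone, had 6.19, 3.37, 10.6 and 1.16 in kidney and 174, 154 and 119.8 in lymph node (log2 fold change -5.27 and -4.81, SE 0.48 and 0.51). Ltbr, the receptor of Ltb, was the 1 gene of this list up-regulated in kidney, with values of 59.2, 30.4, 33.7 and 39.4 in kidney and 15.9, 10.4 and 8.90 in lymph node (log2 fold change 1.70, SE 0.34, adjusted p = 0.00245). Ligand and receptor thus differed in opposite directions, with no overlap of the libraries for either. Without both libraries rich in ribosomal RNA, 2 genes of this list were up-regulated in kidney. In a list for sinus and marginal macrophages of lymphoid organs, all 5 tested genes were up-regulated in lymph node. The lectin Cd209b had lymph node values of 60.9, 63.5 and 51.8, the secreted Cd5l 46.4, 62.5 and 42.9, the scavenger receptor Marco 29, 81.5 and 50.2 and the phosphatidylserine receptor Timd4 44.9, 31.3 and 40.5. No kidney library had a read of any of the 4, and lymph node was at least 10.8-fold, 9.30-fold, 9.85-fold and 7.10-fold higher.

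Other myeloid genes showed smaller differences. Of 11 general macrophage genes, 7 were up-regulated in lymph node and none in kidney (median log2 fold change -2.28). Lyz2, the lysozyme of macrophages and neutrophils, had values of 172, 234, 65.7 and 109 in kidney and 1856, 1398 and 1306 in lymph node, and Tyrobp, an adaptor of activating receptors, had 27.4, 49.8, 24.8 and 39.4 in kidney and 351, 215 and 135 in lymph node. C1qa, of the first complement component, had 62.8, 169, 35.5 and 32.5 in kidney and 236, 535 and 353 in lymph node, and Fcer1g, the chain that Fc receptors share, had 53, 48.9, 16 and 18.5 in kidney and 154, 238 and 143 in lymph node. All 4 were read in every kidney library, so kidney was not free of myeloid RNA. Their log2 fold changes were -3.51, -2.64, -2.56 and -2.51 (SE 0.48, 0.42, 0.58 and 0.49). The 3 tested dendritic cell genes were up-regulated in lymph node. Cd83, a marker of mature dendritic cells and B cells, had values of 3.54, 8.43, 1.77 and 1.16 in kidney and 47.8, 55.9 and 51 in lymph node, the integrin Itgax had lymph node values of 13, 39.8 and 55 and Fscn1, an actin bundler, 14.5, 34.1 and 36.4, with lymph node of mouse H6 the lowest of the 3 for each. Itgax and Fscn1 had no more than 3 reads in any kidney, and their ratios were 24.3 (95% counting interval 10.8 to 67.5) and 15.8 (95% counting interval 7.35 to 40.4).

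The leukocyte cytoskeleton and migration list gave the same direction for all 14 tested genes (median log2 fold change -3.48). Coro1a, an actin regulator of leukocytes, had values of 30.1, 27, 17.7 and 8.11 in kidney and 364, 328 and 369.9 in lymph node. Selplg, the selectin ligand, Rac2, a small GTPase, and Ptprc, the CD45 phosphatase, had log2 fold changes of -4.07, -3.95 and -3.90 (SE 0.50, 0.38 and 0.43). Antigen presentation followed. All 11 tested genes of MHC class II presentation were up-regulated in lymph node (median -3.05), as were all 12 of MHC class I and the immunoproteasome (median -2.35). H2-Ob and H2-Oa, the chains of the B-cell chaperone of class II loading, had lymph node values of 46.4, 79.6 and 57.5, and of 15.9, 34.1 and 24.3, respectively. Kidneys had 1 read of H2-Ob, a ratio of 231 (95% counting interval 40.9 to 9173), and none of H2-Oa, for which lymph node was at least 4.45-fold higher. H2-Eb1, a class II beta chain, had values of 155, 296, 95.8 and 71.9 in kidney and 1253, 1313 and 1220.4 in lymph node and H2-DMb2 had 9.73, 16, 3.55 and 3.48 in kidney and 63.8, 113 and 123 in lymph node, so these 2 were read in every kidney. Psmb9 and Psmb8, catalytic subunits of the immunoproteasome, had log2 fold changes of -3.89 and -3.73 (SE 0.42 and 0.54). Tap1, the peptide transporter, had values of 7.07, 7.59, 1.77 and 1.16 in kidney and 34.8, 58.7 and 67.2 in lymph node, and Nlrc5, the transactivator of class I genes, 2.65, 1.69, 1.77 and 1.16 in kidney and 10.1, 27.5 and 29.9 in lymph node. MHC genes are variable between strains and alike between copies, which could affect their counts.

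Interferon-stimulated genes, a hallmark of lupus, were up-regulated in lymph node for 9 of 15 tested genes and in kidney for none (median -2.08). Zbp1, a sensor of nucleic acids, had values of 2.65, 5.06, 1.77 and 1.16 in kidney and 27.5, 28.4 and 31.6 in lymph node, and Usp18, which removes ISG15 from proteins, had 6.19, 5.06, 1.77 and 1.16 in kidney and 27.5, 31.3 and 21 in lymph node. Ifi27l2a had 81.3, 181, 72.8 and 88.1 in kidney and 1275, 636 and 367 in lymph node and was read in every library. The cell cycle list was up-regulated in lymph node for all 15 tested genes, with a median log2 fold change of -1.90. That count fell to 10 without both libraries rich in ribosomal RNA. It was 11 with the mouse as a replicate block and 11 without lymph node of mouse H6. Rrm2, which makes deoxynucleotides, had values of 9.73, 8.43, 1.77 and 1.16 in kidney and 53.6, 25.6 and 32.4 in lymph node, and the proliferation marker Mki67 had 4.42, 5.90, 1.77 and 1.16 in kidney and 11.6, 31.3 and 30.8 in lymph node. Mcm5 and Mcm3, parts of the replicative helicase, had log2 fold changes of -2.75 and -2.59 (SE 0.48 and 0.49). Kidneys of mice H6 and H20 had more reads of these 4 genes than those of mice H117 and H115.

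Complement genes had more calls in lymph node than in kidney. Of 13 tested, 6 were up-regulated in lymph node and 2 in kidney, beside 20.6% and 23.1% of all genes tested. The count in kidney fell to 1 without both libraries rich in ribosomal RNA. It fell to 0 without kidney of mouse H6 or without lymph node of mouse H117, H20 or H6. Cfp, the properdin that stabilizes the alternative pathway, had values of 7.07, 4.22, 1.77 and 1.16 in kidney and 53.6, 95.7 and 71.2 in lymph node, and the regulator Cd55 had lymph node values of 15.9, 16.1 and 12.1 and 2 reads in all kidneys together, a ratio of 25.1 (95% counting interval 6.51 to 214). C3, on which all pathways meet, had values of 120.2, 90.3, 7.10 and 18.5 in kidney and 120.3, 319 and 384 in lymph node (log2 fold change -2.76, SE 0.91, adjusted p = 0.0355). Kidney of mouse H6 was just below lymph node of the same mouse for C3, and the call was lost without kidney of mouse H115, kidney of mouse H117, lymph node of mouse H117 or lymph node of mouse H20 (adjusted p = 0.0568 to 0.13), or with the mouse as replicate block (adjusted p = 0.119), or without both libraries rich in ribosomal RNA (adjusted p = 0.0513). Cfi, a soluble inhibitor, was up-regulated in kidney, with values of 28.3, 16.9, 1.77 and 4.64 in kidney and 1.45, 0.947 and 0.809 in lymph node. It had no read in lymph node and was at least 2.70-fold higher in kidney (adjusted p = 0.0327). The call on Cfi was lost without kidney of mouse H20, kidney of mouse H6, lymph node of mouse H117, lymph node of mouse H20 or lymph node of mouse H6 (adjusted p = 0.0639 to 0.103).

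Tubular injury genes were uneven among the kidneys. Of 14 tested, 4 were up-regulated in kidney and 2 in lymph node, beside 23.1% and 20.6% of all genes tested. The summed level was 509 to 13361 in kidney and 542 to 703 in lymph node, and Spp1 alone made up most of it in each kidney. Spp1, osteopontin, a secreted phosphoprotein of injured tubules (ENSMUSG00000029304; chromosome 5, 104435118 to 104441050), had values of 11628, 9144, 318 and 753 in kidney and 1.45, 4.74 and 0.809 in lymph node (log2 fold change 9.58, SE 1.26, adjusted p = 0.000378). Havcr1, the kidney injury molecule of the proximal tubule, had 530.5, 317, 37.3 and 30.1 in kidney and 8.69, 8.53 and 11.3 in lymph node (log2 fold change 3.51, SE 0.97, adjusted p = 0.0168). In both genes kidneys of mice H6 and H20, aged 39 and 36 weeks, were far above those of mice H117 and H115, aged 32 and 25 weeks, and all 4 were above every lymph node. The keratins Krt8 and Krt18 of simple epithelia had kidney values of 162, 112, 33.7 and 75.3, and of 41.6, 21.9, 1.77 and 10.4, with no read in lymph node, and were at least 21.8-fold and 4.08-fold higher. Lcn2, a lipocalin that injured tubules release, had kidney values of 96.4, 69.2, 1.77 and 2.32 and no read in lymph node, and was not called (adjusted p = 0.125). It is named, with Clu, Krt20, Timp1, Col3a1 and Acta2 in the plot of injury genes, after its values were seen. Vim, the intermediate filament of mesenchymal cells and leukocytes, was up-regulated in lymph node, with values of 126, 119.8, 16 and 26.7 in kidney and 181, 214 and 227 in lymph node (log2 fold change -2.00, adjusted p = 0.039), and so was the adhesion receptor Cd44, with 3.54, 8.43, 1.77 and 1.16 in kidney and 7.25, 14.2 and 12.9 in lymph node (log2 fold change -1.59, adjusted p = 0.0258). The call on Havcr1 was lost without lymph node of mouse H117 or lymph node of mouse H20 (adjusted p = 0.0507 to 0.0645), and that on Krt18 without kidney of mouse H115, lymph node of mouse H117 or lymph node of mouse H20 (adjusted p = 0.0532 to 0.0733). Vim lost its call without kidney of mouse H115, kidney of mouse H117, lymph node of mouse H117, lymph node of mouse H20 or lymph node of mouse H6 (adjusted p = 0.0835 to 0.114), or with the mouse as replicate block (adjusted p = 0.0936), or without both libraries rich in ribosomal RNA (adjusted p = 0.141). Cd44 lost its call without kidney of mouse H115, kidney of mouse H117, lymph node of mouse H117 or lymph node of mouse H20 (adjusted p = 0.0614 to 0.0951), or with the mouse as replicate block (adjusted p = 0.063), or without both libraries rich in ribosomal RNA (adjusted p = 0.0722).

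**Figure D3:**
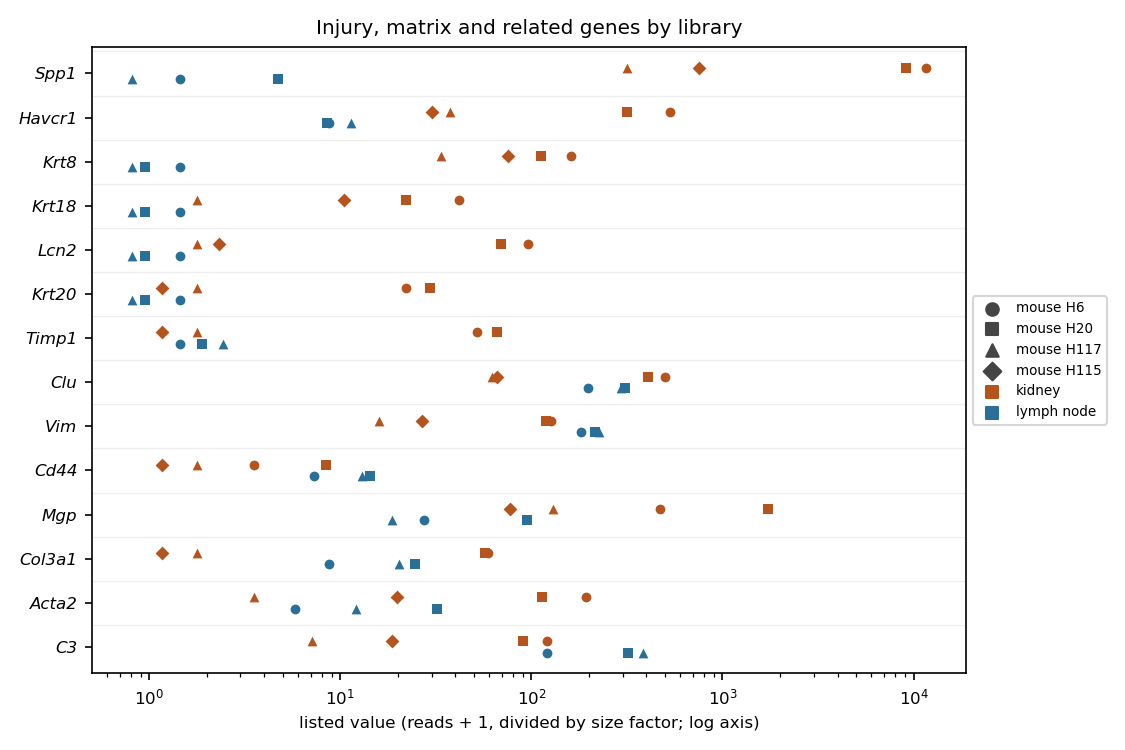
Listed values (log axis) of injury, matrix and related genes, one point per library, with colour for the tissue and shape for the mouse. For every gene drawn, kidneys of mice H6 and H20 (circles and squares) have higher values than kidneys of mice H117 and H115, as for Havcr1 with 530.5, 317, 37.3 and 30.1. Lcn2, Clu, Krt20, Timp1, Col3a1 and Acta2 were added after their values were seen, and other members of the lists are not drawn.

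Connective tissue and vessel genes gave few calls. Of 13 matrix genes, 1 was up-regulated in each direction. Mgp, an inhibitor of calcification, had values of 469, 1735, 129.6 and 77.7 in kidney and 27.5, 94.7 and 18.6 in lymph node (log2 fold change 3.00, SE 1.02, adjusted p = 0.0403), and Dcn, the proteoglycan decorin, had 33.6, 59, 12.4 and 18.5 in kidney and 63.8, 90.0 and 73.6 in lymph node (log2 fold change -1.48, SE 0.49, adjusted p = 0.0319). Sparc, a matrix protein with a high mean, had 159, 198, 24.8 and 23.2 in kidney and 63.8, 85.3 and 58.3 in lymph node and was not called (adjusted p = 0.965), nor was Bgn, biglycan, with 193, 178, 14.2 and 20.9 in kidney and 13, 62.5 and 52.6 in lymph node (adjusted p = 0.619). Kidneys of mice H6 and H20 were above all 3 lymph nodes for Sparc and Bgn while those of mice H117 and H115 were below those of mice H20 and H117. The call on Mgp was lost without kidney of mouse H6, lymph node of mouse H117 or lymph node of mouse H6 (adjusted p = 0.0983 to 0.147), or without both libraries rich in ribosomal RNA (adjusted p = 0.112), and that on Dcn without kidney of mouse H115, kidney of mouse H117, lymph node of mouse H117, lymph node of mouse H20 or lymph node of mouse H6 (adjusted p = 0.0596 to 0.0978), or with the mouse as replicate block (adjusted p = 0.0797), or without both libraries rich in ribosomal RNA (adjusted p = 0.0991). Among 9 endothelial genes, Emcn, a sialomucin of capillaries, was up-regulated in kidney, with values of 12.4, 13.5, 3.55 and 5.79 in kidney and 1.45, 1.89 and 0.809 in lymph node and a ratio of 26.3 (95% counting interval 4.40 to 1069), and Cldn5, a tight junction protein, in lymph node, with 7.07, 6.75, 7.10 and 6.95 in kidney and 11.6, 17.1 and 10.5 in lymph node (log2 fold change -0.79, SE 0.27, adjusted p = 0.039). The call on Cldn5 was lost without kidney of mouse H115, kidney of mouse H117, kidney of mouse H20, kidney of mouse H6, lymph node of mouse H117, lymph node of mouse H20 or lymph node of mouse H6 (adjusted p = 0.0509 to 0.179), or with the mouse as replicate block (adjusted p = 0.16), or without both libraries rich in ribosomal RNA (adjusted p = 0.0535). Plvap, of fenestrated vessels, Pecam1, of all endothelium, and Eng, a coreceptor of TGF-beta, had log2 fold changes of -0.21, -1.02 and 0.77 (adjusted p = 0.739, 0.0761 and 0.177). Of 5 smooth muscle genes, Des, desmin, was up-regulated in lymph node, with values of 8.84, 8.43, 1.77 and 1.16 in kidney and 8.69, 18 and 20.2 in lymph node, and its call was lost without kidney of mouse H115, kidney of mouse H117, lymph node of mouse H117 or lymph node of mouse H20 (adjusted p = 0.0905 to 0.136), or with the mouse as replicate block (adjusted p = 0.118), or without both libraries rich in ribosomal RNA (adjusted p = 0.0904). Acta2, Tagln and Myl9, of the contractile apparatus, had log2 fold changes of 1.40, 0.87 and 1.59 (adjusted p = 0.419, 0.576 and 0.0824).

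Genes of neighbouring tissues were looked at as a check of the dissection. All 7 tested adipocyte genes were up-regulated in lymph node (median log2 fold change -3.55). Ucp1, the uncoupling protein of brown fat, had lymph node values of 164, 263 and 41.3, and Cfd, adipsin, had 91.3, 345 and 20.2. The lipid droplet gene Cidec and the hormone Adipoq had 30.4, 54.9 and 8.09, and 23.2, 59.7 and 9.71. For each of the 4, lymph node of mouse H20 was the highest and that of mouse H117 the lowest, no kidney library had a read, and the lower bounds were 29.1-fold, 28.4-fold, 5.65-fold and 5.59-fold. The part of fat RNA in the differences of other genes was not tested. None of the 6 adrenal cortex genes and none of the 7 urothelium genes had a read in lymph node, no adrenal gene had one in kidney, and the summed urothelium level in kidney was 12.4 to 30.1. The 12.4 was that of kidney of mouse H117, which had no read of any urothelium gene, and holds only the values listed for genes without reads. No skeletal muscle gene was read in kidney and 1 of 6 was in lymph node. No gene of these 3 lists reached a mean of 5. None of the 5 tested erythroid and platelet genes was called by limma, edgeR or DESeq2, and none had an unadjusted limma p under 0.05. The haemoglobin genes Hba-a1, Hbb-bs and Hbb-bt, which have similar copies, had kidney values of 39.8, 86, 1338 and 913, of 46.9, 148, 1383 and 1136, and of 16.8, 12.7, 159.7 and 189, highest in mice H117 and H115, and lymph node values of 17.4, 396 and 59.1, of 26.1, 349.6 and 71.2, and of 10.1, 52.1 and 22.7 (adjusted p = 0.382, 0.282 and 0.424). The part of blood RNA in other results was not tested.

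Cytosolic ribosomal protein genes, which build the protein-making machinery, were up-regulated in lymph node for 58 of 77 tested genes and in kidney for none (median log2 fold change -1.51). Rpl36a had values of 7.96, 9.28, 5.32 and 9.27 in kidney and 169.5, 118 and 70.4 in lymph node, Rps27 12.4, 55.7, 28.4 and 27.8 in kidney and 409, 464 and 153 in lymph node, Rpl27 23.9, 56.5, 5.32 and 12.7 in kidney and 346, 145 and 85.8 in lymph node and Rpl12 34.5, 31.2, 12.4 and 15.1 in kidney and 454, 98.5 and 125 in lymph node. Their log2 fold changes were -3.69, -3.45, -3.13 and -3.00 (SE 0.37, 0.55, 0.72 and 0.57). Lymph node of mouse H6, one of the libraries rich in ribosomal RNA, was the highest for Rpl36a, Rpl27 and Rpl12. The count fell from 58 to 16 without both libraries rich in ribosomal RNA, to 23 without lymph node of mouse H6 alone, to 33 without that of mouse H20, to 37 without kidney of mouse H6 and to 33 with the mouse as a replicate block. Many of these genes have processed copies in the genome that could share their reads.

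The share of all reads that each gene class took was compared between the tissues. Antibody constant regions took 0.243%, 0.306%, 0.134% and 0.0721% of the reads in kidney and 5.12%, 6.87% and 6.36% in lymph node. Cytosolic ribosomal protein genes took 3.82%, 5.81%, 2.21% and 3.97% in kidney and 10.4%, 13.3% and 8.91% in lymph node. The lymph nodes were above the kidneys in both classes with no overlap. The 35 proximal tubule genes took 3.21%, 3.83%, 3.08% and 6.31% in kidney and 0.00734%, 0.0230% and 0.0151% in lymph node. Nuclear genes of the citric acid cycle and respiratory chain took 1.10%, 1.34%, 0.768% and 1.76% and 0.397%, 0.683% and 0.494%. Both were higher in kidney with no overlap. In these 4 classes the exact two-sided permutation p was 0.0571, the smallest that 4 against 3 libraries can give, and 0.0714 after adjustment over the 5 classes. The 13 protein genes of the mitochondrial genome took 17.7%, 14.2%, 4.75% and 23.3% and 1.33%, 4.87% and 3.98%. Kidney of mouse H117, with 55.6% ribosomal RNA, lay below lymph node of mouse H20 in this class (exact permutation p = 0.114). As a share of the reads outside ribosomal RNA, the mitochondrial genes of kidney of mouse H117 took 10.7%, above the highest lymph node at 5.02%, and the exact permutation p was then 0.0571 in all 5 classes. The 95% Wilson interval of the smallest share, that of the proximal tubule genes in lymph node of mouse H6, was 0.00520% to 0.0104%, and such intervals and floors cover counting error only.

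**Figure D4:**
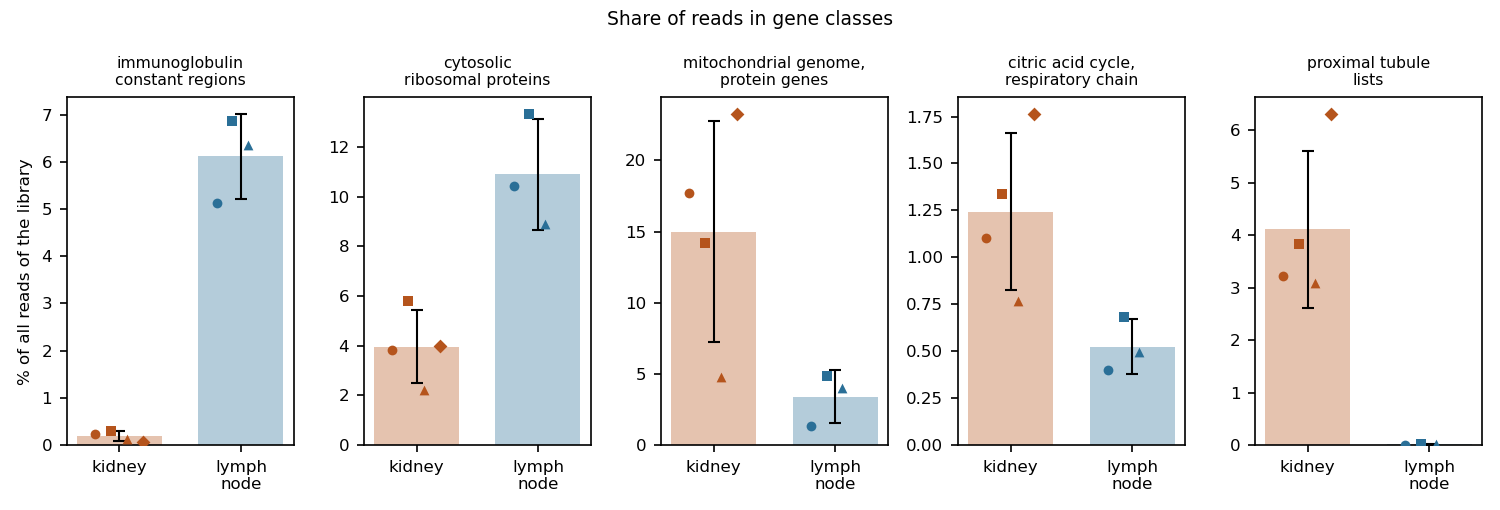
Share of all reads of each library, in percent, that 5 gene classes took, with one point per library (shape for the mouse), bars for the tissue mean and lines for its SD (n = 4 kidney, n = 3 lymph node). Only in the mitochondrial genome do points of the tissues overlap, through kidney of mouse H117 (triangle).

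Within the 3 mice with both tissues, the difference of log2(value + 1) between kidney and lymph node had one sign in all 3 mice for 4470 of the 7417 genes (60.3%) and for 3209 of the 3248 DE genes (98.8%), whose fit used these same libraries. Spearman's rho of the differences across genes was 0.757 between mice H6 and H20, 0.790 between mice H20 and H117 and 0.604 between mice H6 and H117, a description over genes that are not independent. The median size of the difference was 1.08 in mouse H6, 0.839 in mouse H20 and 1.26 in mouse H117. Several lists differed by nearly the same amount in each mouse. The median difference of the transport and endocytosis list was 4.94, 4.50 and 5.16 in mice H6, H20 and H117, that of the sodium pump 5.62, 5.76 and 5.50, that of the T-cell list -3.77, -3.82 and -3.49 and that of the plasma cell list -3.29, -3.20 and -3.14. Of 15 transport and endocytosis genes, 14 had no read in any lymph node. Of 16 T-cell genes listed, 14 had no more than 3 reads in any kidney. The differences of these lists are thus largely distances from the value of a gene without reads. Of 10 plasma cell genes, 5 had no more than 3 reads in any kidney, and no sodium pump gene had so few in either tissue.

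Injury and stromal lists did not share this evenness. The median difference of the tubular injury list was 2.67, 2.59 and -0.33 in mice H6, H20 and H117, that of the matrix list 2.11, 1.10 and -2.33 and that of the smooth muscle list 2.99, 1.28 and -1.08. In each of these 3 lists mouse H117 had a negative median and mice H6 and H20 had positive ones. Complement was positive in mouse H6 alone, with 0.27, -1.23 and -3.14, and the erythroid list negative in mouse H20 alone, with 0.68, -1.95 and 2.76. Mouse H117 was also the lowest in the general leukocyte lists, as in leukocyte cytoskeleton with -2.58, -3.12 and -4.32. Kidney of mouse H117 was the library with the most ribosomal RNA and the fewest genes with a read (7585), and its part in these differences was not tested.

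**Figure D5:**
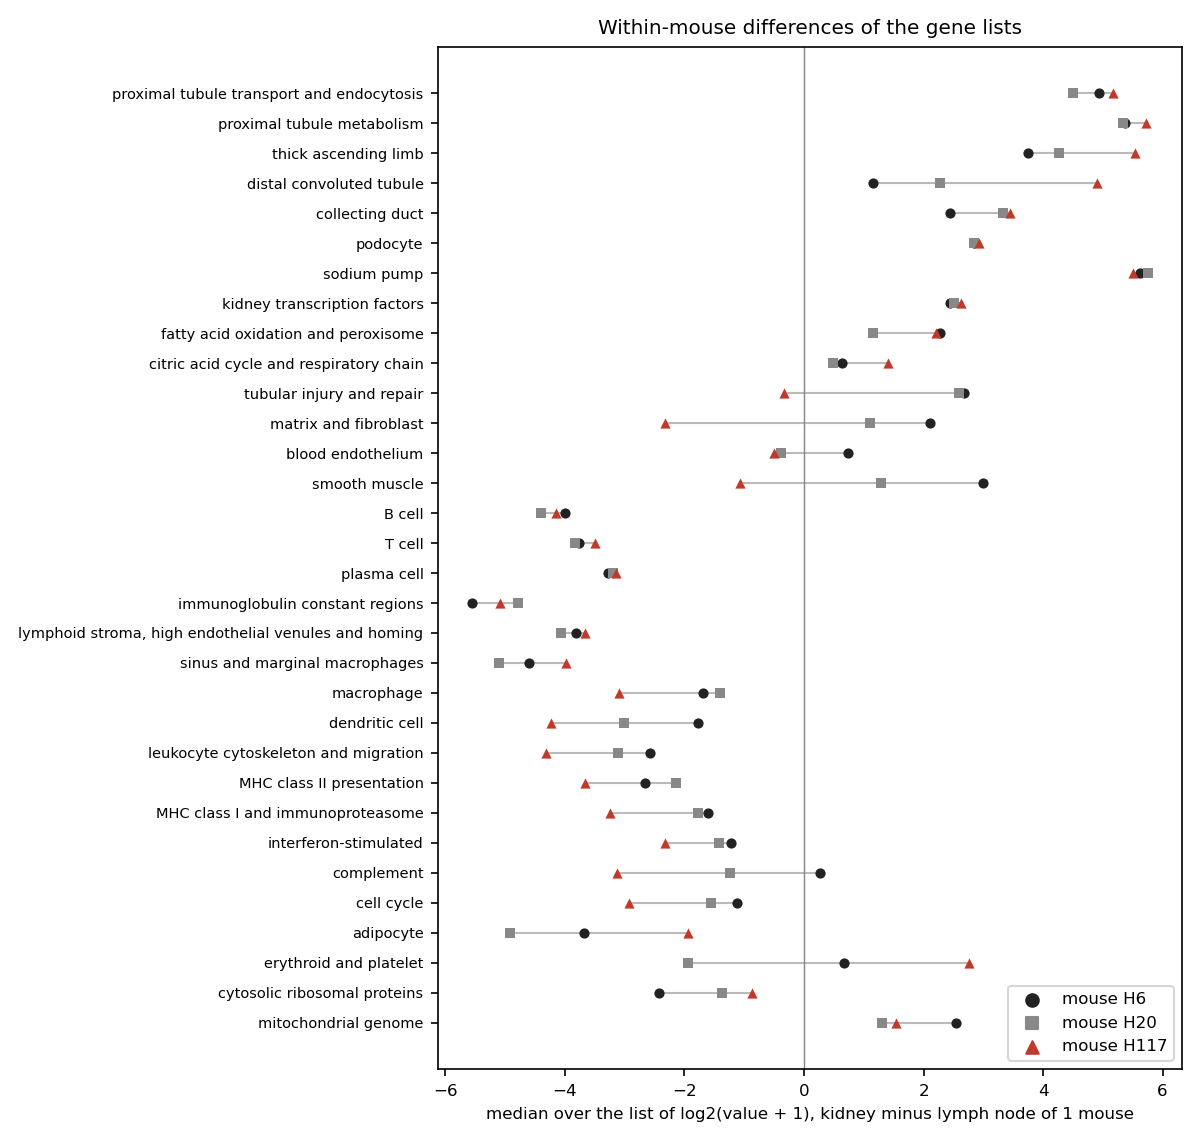
Median over each list of the difference of log2(value + 1) between kidney and lymph node of 1 mouse, for mice H6, H20 and H117. The 3 mice coincide for the sodium pump, podocyte and plasma cell lists and spread to both sides of 0 for the injury, matrix, smooth muscle, complement, endothelial and erythroid lists.

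Some DE genes differed widely in size between the mice. Besides Spp1 and Havcr1, with differences of 12.21, 10.64 and 7.46 and of 5.78, 5.06 and 1.63 in mice H6, H20 and H117, the widest ranges among genes up-regulated in kidney were those of Aoc1, a diamine oxidase, with 4.37, 5.32 and 0.08, Fga, the fibrinogen alpha chain, with 5.56, 4.99 and 1.33, and Fam195a, with 1.51, 0.96 and 5.21. Aoc1 and Fga had kidney values of 49.5, 76.8, 1.77 and 11.6, and of 114.9, 60.7, 3.55 and 11.6, again highest in mice H6 and H20. Fam195a had kidney values of 26.5, 28.7, 95.8 and 84.6, highest in mice H117 and H115. The call on Aoc1 was lost without kidney of mouse H115, kidney of mouse H20, kidney of mouse H6, lymph node of mouse H117, lymph node of mouse H20 or lymph node of mouse H6 (adjusted p = 0.0626 to 0.126), or with the mouse as replicate block (adjusted p = 0.0752), that on Fga without kidney of mouse H20, lymph node of mouse H117 or lymph node of mouse H20 (adjusted p = 0.0504 to 0.068) and that on Fam195a with the mouse as replicate block (adjusted p = 0.0551). Among genes up-regulated in lymph node they were C3, close to 0 in mouse H6 and at -1.81 and -5.57 in mice H20 and H117, Cfd, with -5.61, -7.55 and -2.94, Ccl8, a chemokine for monocytes, with -6.20, -2.71 and -1.97, the ribosomal protein gene Rps12, with -4.45, -2.55 and 0.08, and the mitochondrial tRNA gene mt-Ty, with -4.70, -1.39 and -0.34. Ccl8 had values of 1.77, 14.3, 10.6 and 2.32 in kidney and 203, 99.5 and 44.5 in lymph node, with lymph node of mouse H6 the highest. Rps12 had 76, 243, 304 and 226 in kidney and 1687, 1426 and 287 in lymph node, and in mouse H117 the tissues were close to each other. The call on Rps12 was lost without kidney of mouse H6, lymph node of mouse H20 or lymph node of mouse H6 (adjusted p = 0.0572 to 0.107), or with the mouse as replicate block (adjusted p = 0.0623), or without both libraries rich in ribosomal RNA (adjusted p = 0.116), and that on mt-Ty without lymph node of mouse H6 (adjusted p = 0.0688), or with the mouse as replicate block (adjusted p = 0.09).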

How the data were processed

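Poly(A) RNA of kidney and lymph node, purified with TRIzol from samples with an RNA integrity value of at least 7, was sequenced on an Ion Torrent PGM. The authors mapped and counted reads in CLC Genomics Workbench 8 with default settings on GRCm38, and deposited a signal table of gene values divided by size factors. The factor of each library was inferred as 1 over its smallest listed value, taken to be that of a gene without reads. Multiplying the signal values by these factors and subtracting 1 gave whole reads for 100.0% of values (tolerance 0.001). The aligners and build in the submitters' processing notes are listed there without a role for these libraries, and the BWA-based set of whole kidneys was not analysed here. Within a tissue each library came from a different mouse, and 3 mice gave both tissues.

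Genes with a mean of at least 5 over the 7 libraries were tested with limma 3.58.1 in R 4.3.3 (trend and robust moderation) on log2(value + 1), without covariates, with Benjamini-Hochberg adjustment over 7417 genes and a threshold of 0.05. The labels give 4 kidney libraries and the study's text 3 mice, and all 4 were used. A gene without reads in a tissue got a lower bound of the fold change, from the mean of the other tissue over 3 reads in the shallowest library, and a gene with 1 to 3 reads in a library there the ratio of pooled reads with its exact 95% interval. Alternatives with edgeR 4.0.16 and DESeq2 1.42.0 used the recovered reads. Two-sided exact permutation tests were used for read shares. Gene positions are those of GENCODE for GRCm38.

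Same-numbered kidney and lymph node libraries came from the same mouse. Their deviations from the tissue means correlated at -0.33 in mouse H6, 0.21 in mouse H20 and -0.33 in mouse H117, beside -0.36 to 0.51 in the 9 pairs of different mice. The fit with the mouse as replicate block drops kidney of mouse H115.

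Genes named in the text were, in each direction, the 10 with the largest fold change among DE genes whose libraries did not overlap, up to 4 DE genes with the largest fold change in each list, members called against their list where there were at most 3, the 3 highest genes of lists with few calls, and the 5 widest within-mouse ranges in each direction. Antigen receptor segments, numbered predicted genes and pseudogenes were left out. Lists and members were chosen with earlier results of these data known. Some genes fulfilling this rule are not reported here.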

Additional observations from a re-analysis of the deposited data

Results flagged for a closer look

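In kidney, 2 of the 144 named values with a group of 4 libraries had 1 library far from the others by Dixon's criterion at 95%, a share of 1.39%, and chance alone flags about 1 in 20. Hoxd8 had a log2(value + 1) of 3.19 in kidney of mouse H115, below 4.08 to 4.09 in the other kidneys. Tfcp2l1 had 4.73 in kidney of mouse H115, above 4.15 to 4.23 in the others. The lymph node group of 3 libraries was not tested in this way.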

How the results depend on the processing

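Of the 139 genes named by the rule, 114 kept their call and direction in each of the 25 alternatives in which they were tested, and no named gene reversed. With a mean of at least 20, 107 of the 139 were tested, and 135 without antigen receptor genes. The 3248 DE genes became 1314 with a mean of at least 20, of which 677 were up-regulated in kidney and 637 in lymph node, since only 2481 genes were then tested. Leaving out 1 library at a time gave 2694 to 3114 DE genes, 1419 to 1714 up-regulated in kidney and 1224 to 1515 in lymph node. With the mouse as replicate block there were 2462 (1311 in kidney and 1151 in lymph node), and among the named genes the block ended 14 calls and added that of Myl9. The edgeR quasi-likelihood test gave 3162, its likelihood ratio test 3491, DESeq2 2876, limma on TMM-scaled reads 3389 and no filter 4325. Without both libraries rich in ribosomal RNA, an alternative chosen after seeing the data, there were 2934. The differences of read shares between the tissues ranged, without 1 library each, from -6.42 to -5.55 percentage points for antibody constant regions, from -7.93 to -5.72 for ribosomal proteins, from 8.83 to 15 for the mitochondrial genome, from 0.544 to 0.876 for the respiratory chain and from 3.36 to 4.43 for the proximal tubule. Within-mouse differences with one sign in 3 mice numbered 4470 in the values as deposited and 4579 with TMM scaling. Pecam1, Pvalb and Myl9 were called in some alternatives only. Of the lists, tubular injury went from 4 to 2 genes up-regulated in kidney without lymph node of mouse H117 or of mouse H20, and to 7 with all 7 lymph nodes, of which 4 came from mice not labelled proteinuric. With all 7 lymph nodes the genes up-regulated in lymph node also went from 6 to 10 for complement and from 1 to 4 for endothelium. For each of these shifts other than that of the filter, the cause was not tested. At 343825 to 435906 reads a library, a gene under about 3 reads could not be told from one without expression.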
